A study of Mus musculus with 16 samples.

Results

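The compound PFM037 was set against its vehicle in mouse bone marrow-derived monocytes that had received no tumour necrosis factor (TNF). The comparison rests on 8 of the 16 libraries of the study, which were the 4 PFM037 libraries and the 4 vehicle libraries, joined by the number of the animal. All cells came from 4 wild-type mice and were kept with macrophage colony-stimulating factor (M-CSF), so the vehicle group was an M-CSF culture too. The 4 groups were PFM037, vehicle, PFM037 together with TNF, and TNF alone, each with 1 library per animal, and cells were lysed for RNA after 24 h. The labels give PFM037 as a code name only. Its dose and target, and the strain, age and sex of the mice, are not stated in the labels used here. The 8 TNF libraries entered the shared estimate of the spread and served as a second comparison of the compound in the same animals.

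M-CSF binds the receptor encoded by Csf1r on monocytes and keeps them alive, dividing and maturing towards macrophages. The receptor signals in part through MAP kinases, whose output is held back by phosphatases and adaptor proteins that the same pathway induces. Maturing macrophages take up lipids and dying cells, build up lysosomes, and secrete cytokines and coagulation factors.

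The animal, rather than the compound, set most of the variation between these 8 libraries. It took 80.08% of the sum of squares of log2 CPM (read counts divided by the library total, which is adjusted with TMM factors), against 6.37% for PFM037 or vehicle and 13.54% for the remainder. Library totals were 11142804 to 18845228 counts for PFM037 and 14114703 to 20125134 counts for vehicle. The cells carried the transcripts of monocytes and macrophages, with Lyz2 at 18958 to 26556 CPM in PFM037 and 21127 to 27944 CPM in vehicle, and the integrin gene Itgam at 1678 to 2016 CPM in PFM037 and 1720.0 to 2240.0 CPM in vehicle. Both genes are also expressed by granulocytes, and transcripts of other bone marrow cells were present. The neutrophil gene S100a8 was at 2678 to 4661 CPM in PFM037 and 2783 to 4105 CPM in vehicle, and the 15 erythroid and megakaryocyte markers summed to 1239 to 4033 CPM in PFM037 and 1207 to 2950.1 CPM in vehicle, higher with PFM037 in 3 of 4 animals. The T cell gene Cd3e was at 1.16 CPM or less in PFM037 and 1.38 CPM or less in vehicle.

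**Figure D1:**
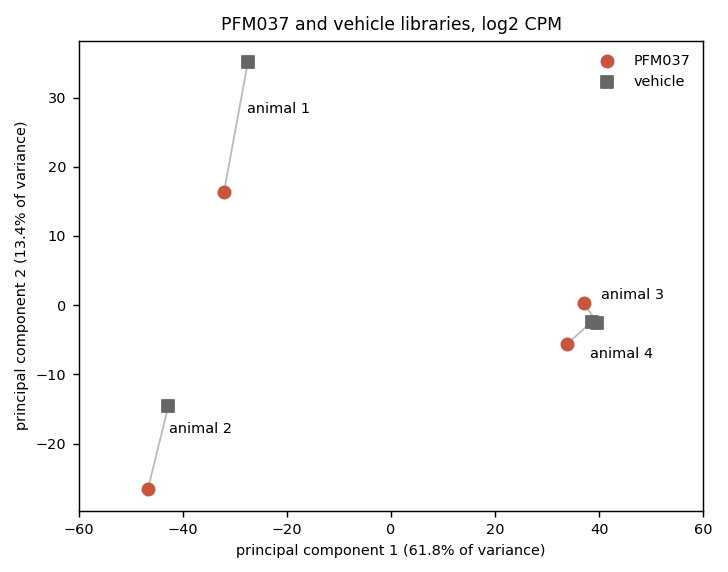
Principal components 1 and 2 of log2 CPM over the 4 PFM037 (circles) and 4 vehicle (squares) libraries, with a grey line joining the libraries of an animal. Component 1, with 61.8% of the variance, parts animals 1 and 2 from animals 3 and 4, and along component 2, with 13.4%, the PFM037 library lies below its vehicle library in animals 1, 2 and 4.

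In the model of all 16 libraries with the animal as a block, 9 genes fell and 2 rose at an adjusted p under 0.05 (edgeR's quasi-likelihood test, Benjamini-Hochberg adjustment). This is 0.0794% of the 13856 genes tested (0.065% lower and 0.0144% higher), and the folds of the 11 were between 0.481 and 1.82. Dusp4, Cgnl1, Tgm2, F7, Cd36, Slc6a12, Pim3, Fam20c and Errfi1 fell, and Ear1 and Ear2 rose. At an unadjusted p under 0.05 there were 1195 genes, or 8.62%. Each of the 11 moved the same way in 4 of 4 animals, which 10.5% of all genes did upwards and 11.4% downwards. The 11 were chosen in these same libraries with the animal as a block, so their shared sign follows largely from that choice. Across all genes tested, the log2 changes of different animals were only weakly correlated. The correlation was lowest for animals 1 and 3 (0.005) and highest for animals 1 and 2 (0.216). Scaled by library size alone, 2 genes fell and 2 rose, these being Dusp4, Cgnl1, Ear1 and Ear2, while the adjusted p of the other 7 was 0.0568 to 0.0641. The model called 5 genes without animal 1, 1 gene without animal 2, 6 genes without animal 3 and 0 without animal 4, where 901 genes had an unadjusted p under 0.05. With no animal term edgeR called 0 genes, and 223 had an unadjusted p under 0.05.

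The number of calls depended on which libraries were fitted. Fitted to the 8 PFM037 and vehicle libraries alone, with the same block, edgeR called 183 genes lower (1.37%) and 56 higher (0.419%), together 1.79% of 13380 genes tested. The biological coefficient of variation, the spread between libraries beyond counting, was 6.4% in that fit with 3 residual degrees of freedom, and 9.73% in the fit to 16 libraries with 9. It was 8.55% in the fit to the 8 libraries with TNF. The 239 calls held all 11 of the larger fit. Their size was small, with a median log2 change of -0.37 among the 183 and 0.31 among the 56, and 40 of them reached 1.5-fold and 7 reached 2-fold. Without animal 1 that fit called 78 genes, without animal 2 it called 48, without animal 3 it called 385 and without animal 4 it called 43. The words "rose" and "fell" are kept for the 11 genes of the 16-library fit, and genes that passed in the smaller fit alone are given as called higher or lower there.

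**Figure D2:**
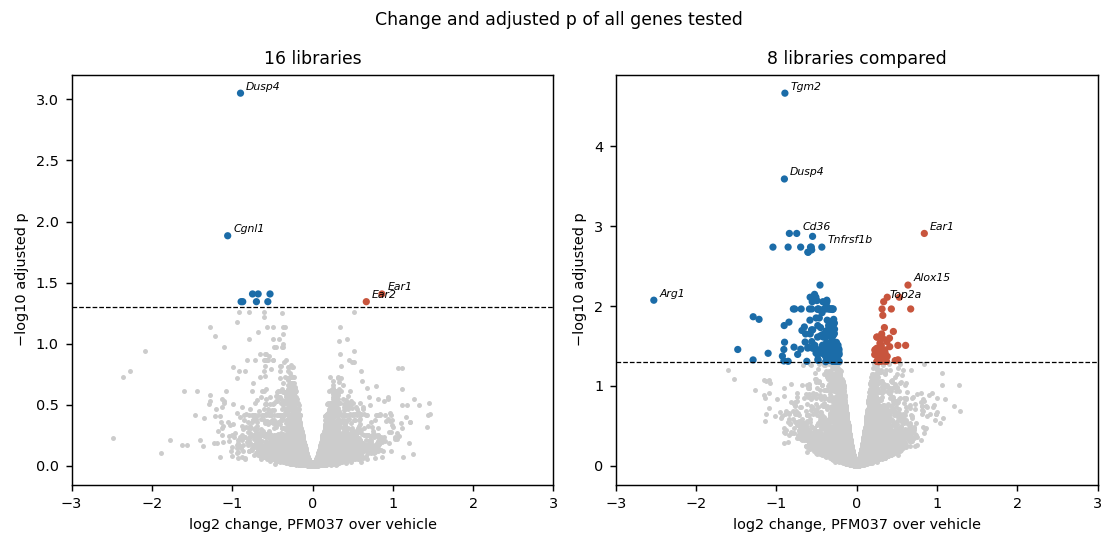
Log2 change, PFM037 over vehicle (horizontal), against −log10 of the adjusted p (vertical) for every gene tested, in the fit to 16 libraries (left) and the fit to the 8 libraries compared (right). Blue points are genes called lower and red points genes called higher at an adjusted p under 0.05 (dashed line), 9 and 2 on the left and 183 and 56 on the right.

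Of the genes that fell, 3 encode regulators of signalling, Dusp4, Errfi1 and Pim3. Dusp4, which had the smallest p of all genes, encodes a dual-specificity phosphatase that removes phosphate from MAP kinases in the nucleus. It stood at 61.8, 30.5, 31.9 and 27.04 CPM in PFM037 cells of animals 1 to 4, against 111, 64.0, 48.9 and 56.4 CPM in their vehicle cells. Animal 1 was the highest in both groups, and its PFM037 level lay above the vehicle levels of animals 3 and 4, so the groups overlapped although every animal was lower with PFM037. The log2 change was -0.90 (SE 0.10, adjusted p = 0.000891), a fold of 0.537, and in the 8-library fit it was -0.90 (SE 0.07, adjusted p = 0.000257). The adjusted p in the 16-library fit was 0.00101 to 0.0476 without animal 1, 2 or 3, and 0.0998 without animal 4. Dusp4 is a protein-coding gene at chr8:34807297-34819894 on GRCm38, plus strand.

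Errfi1 encodes an adaptor that binds and inhibits receptors of the EGF family. Its level was 42.5, 21.96, 86.4 and 71.9 CPM in PFM037 and 74.4, 29.8, 109 and 103 CPM in vehicle, lower with PFM037 in each animal. The groups overlapped, and animal 2 was the lowest in both. The fitted change was -0.53 on the log2 scale (SE 0.09, adjusted p = 0.0392), with an adjusted p of 0.0575 to 0.276 when an animal was left out. Pim3 encodes a serine/threonine kinase that promotes growth and survival. It was at 51.5, 25.2, 17.7 and 21.5 CPM in PFM037 and 102, 47.5, 23.1 and 26.1 CPM in vehicle, a log2 change of -0.68 (SE 0.11, adjusted p = 0.0392, or 0.0575 to 0.321 with an animal left out). The decrease was largest in animals 1 and 2, by 0.98 and 0.91 on the log2 scale, and smaller in animals 3 and 4, by 0.38 and 0.28.

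The gene lists were chosen with earlier results of these data known, so a list that holds a called gene is no separate result. Among 21 measured MAP kinase phosphatases and feedback inhibitors, Dusp4 and Errfi1 fell and none rose. Over all genes 0.065% fell. The median log2 change of the list was -0.03, or 0.01 when scaled by library size alone. The 8-library fit called 4 of the 21 lower, adding Ier3 (-0.55) and the phosphatase Dusp3 (-0.24), and none higher. Over all genes that fit called 1.37% lower. Of 22 immediate early and AP-1 factors 0 passed in the larger fit, and 3 were called lower in the smaller one. These were Egr2 (-0.60, adjusted p = 0.00212), the orphan nuclear receptor Nr4a1 (-0.58, adjusted p = 0.0150) and Fosl2 (-0.31, adjusted p = 0.0109), all from edgeR. Nr4a1 shows how uneven the animals could be, at 35.0, 37.7, 201 and 223 CPM in PFM037 and 35.4, 65.3, 342 and 349.5 CPM in vehicle, so that animal 1 hardly differed. In the list of PIM kinases, SOCS proteins and STAT targets, Pim3 fell, and the cytokine gene Osm was called lower in the smaller fit alone (-0.58, adjusted p = 0.00776).

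Cgnl1 had the lowest fold of the 11 genes and was the only 1 of them whose PFM037 and vehicle levels did not overlap, as was the case, on the lower side, for 0.65% of all genes. It encodes paracingulin, a protein of tight and adherens junctions. Its level was 16.7, 19.3, 8.20 and 11.2 CPM in PFM037, against 26.6, 35.4, 23.0 and 28.3 CPM in vehicle. The highest PFM037 level, in animal 2, was below the lowest vehicle level, in animal 3. Its log2 change was -1.06 (SE 0.15, adjusted p = 0.0131), a fold of 0.481, and -1.04 (SE 0.12, adjusted p = 0.00183) in the 8-library fit. The adjusted p was 0.0102 without animal 1 and 0.0575 to 0.122 without another animal. Of 13 junction genes measured, 7 were above 0 and 6 below, the median was 0.02, and Cgnl1 was the only call in either fit.

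Cd36 and Tgm2 belong to the lists of lipid handling and alternative activation. Cd36 encodes a scavenger receptor that takes up fatty acids and oxidized lipoproteins. It was at 619, 272, 281 and 288 CPM in PFM037 and 1189.6, 513, 387 and 454 CPM in vehicle. Animal 1 was far above the others in both groups, and each animal was lower with PFM037. The log2 change was -0.75 (SE 0.12, adjusted p = 0.0392), and its adjusted p was 0.0283 without animal 1 and 0.0575 to 0.232 without another animal. Tgm2 encodes transglutaminase 2, which cross-links proteins and serves as a marker of alternatively activated macrophages. It was at 28.4, 24.3, 81.2 and 71.7 CPM in PFM037 and 50.2, 47.3, 142 and 142 CPM in vehicle. Its decrease was even across animals that differed widely in level, at -0.82, -0.96, -0.80 and -0.99 on the log2 scale. The fitted change was -0.89 (SE 0.16, adjusted p = 0.0453, or 0.0575 to 0.232 with an animal left out), and in the 8-library fit its p was the smallest of all genes (SE 0.06, adjusted p = 2.17e-05).

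The promoter windows of Cgnl1 and Cd36 are shown because Cgnl1 had the lowest fold and Cd36 belongs to the lists of lipid and maturation genes that leaned downwards. They cover a RefSeq start of the gene and the bases before it on GRCm38.p6. The RefSeq start of Cd36 used here lies inside the longer GENCODE span of the gene, chr5:17781690-17888801 on the minus strand, so its window is at an internal start. Both are written 5′ to 3′ on the strand of the gene. Capitals mark matches on either strand to GGG, any 5 bases and CC, the letters of an NF-kB site.
Cgnl1, chr9:71771553-71771852, minus strand: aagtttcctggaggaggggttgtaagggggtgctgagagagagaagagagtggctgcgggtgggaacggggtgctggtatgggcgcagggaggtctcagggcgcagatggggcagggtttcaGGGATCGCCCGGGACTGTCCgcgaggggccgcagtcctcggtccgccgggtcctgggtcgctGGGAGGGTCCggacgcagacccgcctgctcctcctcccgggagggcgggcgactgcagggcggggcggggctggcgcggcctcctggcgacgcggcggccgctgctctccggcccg
Cd36, chr5:17835847-17836146, minus strand: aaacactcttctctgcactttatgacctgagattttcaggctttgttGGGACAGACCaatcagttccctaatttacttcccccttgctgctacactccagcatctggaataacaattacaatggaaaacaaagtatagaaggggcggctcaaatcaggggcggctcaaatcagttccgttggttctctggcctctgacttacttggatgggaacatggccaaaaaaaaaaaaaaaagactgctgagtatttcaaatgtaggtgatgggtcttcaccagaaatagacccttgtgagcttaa
RefSeq windows were at hand for 7 of the 9 genes that fell. These NF-kB letters occurred in windows of 6 of the 7, against 50.8% of 32851 mouse windows, and genes with several windows had several chances of a match. The AP-1 letters TGANTCA occurred in 1 of the 7 (7.81% of all windows), TGACGTCA, the cyclic AMP response element, in 1 (1.79%) and GAGGAAGT, the letters of a PU.1 site, in 0 (3.2%). These counts describe letters and not binding.

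F7 encodes coagulation factor VII, the protease that starts the extrinsic pathway once bound to tissue factor. It was at 12.6, 7.50, 25.9 and 17.8 CPM in PFM037 and 32.1, 16.0, 29.9 and 31.2 CPM in vehicle. The 2 groups overlapped, and animal 3 differed least, by -0.20 on the log2 scale, against -1.34 in animal 1. The fit gave a log2 change of -0.87 (SE 0.16, adjusted p = 0.0453), and the adjusted p was 0.0190 without animal 3 and 0.232 to 0.434 without another animal. The next gene downstream on the same strand is F10, which encodes factor X, the substrate of factor VII. F7 lies at chr8:13026034-13035809 and F10 at chr8:13037308-13056676 on GRCm38. F10 was at 151, 125, 323 and 293 CPM in PFM037 and 259.8, 199, 427 and 402 CPM in vehicle. It did not pass in the 16-library fit (log2 -0.56, adjusted p = 0.0732) and was called lower in the 8-library fit (log2 -0.58, SE 0.06, adjusted p = 0.00183). Of 18 coagulation and plasminogen genes measured, 8 were above 0 and 10 below, with the plasminogen activator inhibitor gene Serpinb2 called higher in the 8-library fit (log2 0.41, adjusted p = 0.0322).

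Slc6a12 encodes a transporter of betaine and GABA that serves osmotic balance. It was at 18.0, 15.7, 36.9 and 34.1 CPM in PFM037 and 26.7, 21.1, 64.1 and 64.3 CPM in vehicle, so animals 3 and 4 were higher than animals 1 and 2 in both groups. The log2 change was -0.70 (SE 0.12, adjusted p = 0.0453, or 0.0987 to 0.232 with an animal left out). The neighbour upstream on chromosome 6, Slc6a13, encodes a GABA transporter and did not pass, with 7.73, 7.45, 5.26 and 5.08 CPM in PFM037, against 7.54, 9.11, 7.92 and 7.42 CPM in vehicle (log2 -0.33, adjusted p = 0.577 by edgeR). The taurine transporter gene Slc6a6 was called lower in the 8-library fit by a small amount (log2 -0.23, adjusted p = 0.0378). Fam20c encodes a kinase of the Golgi that phosphorylates secreted proteins. It was at 35.4, 21.7, 23.8 and 19.3 CPM in PFM037 and 57.1, 37.5, 26.9 and 27.4 CPM in vehicle, with overlapping groups. Its log2 change was -0.56 (SE 0.10, adjusted p = 0.0453), with an adjusted p of 0.00808 without animal 3 and 0.294 to 0.449 without another animal.

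Ear1 and Ear2, the genes that rose, encode ribonucleases of the eosinophil-associated family, stored in the granules of eosinophils. Ear1 was at 34.2, 30.6, 6.96 and 6.56 CPM in PFM037, against 20.01, 16.3, 3.94 and 3.56 CPM in vehicle. Ear2 was at 26.8, 23.9, 5.71 and 3.81 CPM in PFM037, against 15.5, 16.3, 3.12 and 2.84 CPM in vehicle. Animals 1 and 2 held several times more of both transcripts than animals 3 and 4 in either group, so the groups overlapped, while each animal was higher with PFM037. The log2 change was 0.86 for Ear1 (SE 0.14, adjusted p = 0.0392) and 0.67 for Ear2 (SE 0.12, adjusted p = 0.0453), or folds of 1.82 and 1.59. With an animal left out, the adjusted p was 0.0575 to 0.241 for Ear1 and 0.0949 to 0.449 for Ear2.

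The 2 genes are near copies in a cluster on chromosome 14, Ear1 at chr14:43818765-43875517 on the minus strand and Ear2 at chr14:44102654-44103534 on the plus strand. The spans are GENCODE's, and the RefSeq start of Ear1 lies inside its span, near its low-coordinate end, so that its window marks an internal start of the GENCODE gene. The windows at the RefSeq starts are shown to let the likeness be seen, with capitals on the bases that differ or face a gap when the pair is aligned.
Ear1, chr14:43819590-43819889, minus strand: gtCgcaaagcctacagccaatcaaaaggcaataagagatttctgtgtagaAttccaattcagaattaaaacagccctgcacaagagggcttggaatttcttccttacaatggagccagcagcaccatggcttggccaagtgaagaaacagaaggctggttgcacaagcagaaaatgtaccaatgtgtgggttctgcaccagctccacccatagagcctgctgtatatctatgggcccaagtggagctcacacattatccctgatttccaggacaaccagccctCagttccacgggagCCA
Ear2, chr14:44102404-44102703, plus strand: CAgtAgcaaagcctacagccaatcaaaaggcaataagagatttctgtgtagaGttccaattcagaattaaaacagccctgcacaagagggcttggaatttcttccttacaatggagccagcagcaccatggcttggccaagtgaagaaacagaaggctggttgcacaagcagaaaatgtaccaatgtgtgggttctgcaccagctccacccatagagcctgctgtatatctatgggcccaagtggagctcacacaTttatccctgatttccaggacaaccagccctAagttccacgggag
Of 303 aligned columns 294 were identical, 3 were mismatches and 6 were gaps. Within the transcripts, 39.3% of the 75-base windows of Ear1 and 23.4% of those of Ear2 occur unchanged in another gene of the family, so reads of these genes cannot be told apart with certainty. The same share was 0 for each of the 9 genes that fell.

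Lists of granulocyte markers leaned upwards, as did several lists of other cell types. Of 11 eosinophil markers, which include Ear1 and Ear2, 10 were above 0, and the median log2 change was 0.24, against 0.00 over all genes. Among the 11, 4 were higher in 4 of 4 animals, Ear1 and Ear2 included, against 10.5% of all genes. The 8-library fit called Prg2, the eosinophil major basic protein, higher beside Ear1 and Ear2 (log2 0.31, adjusted p = 0.0443). The summed level of the 11 markers was 331, 325, 94.2 and 83.4 CPM in PFM037 and 227, 258, 91.5 and 82.8 CPM in vehicle, higher with PFM037 in each animal, though by under 3 CPM in animals 3 and 4. In animals 3 and 4, Ear1 and Ear2 together gained more than the sum did, so the other markers together were lower with PFM037. Of the mast cell and basophil markers 10 were measured and all 10 were above 0, with a median of 0.40. Their sum, over 16 genes, was 422, 491, 167 and 178 CPM in PFM037 and 277, 372, 169.8 and 163 CPM in vehicle, higher in 3 of 4 animals, and Mcpt1, Mcpt2, Mcpt4, Tpsb2 and Tpsab1 were at 0. Prss34, a protease of basophils and mast cells, was called higher in the 8-library fit (log2 0.53, adjusted p = 0.00776). Neutrophil markers had 15 of 17 above 0, a median of 0.13 and sums of 14383 to 29809 CPM in PFM037 and 13871 to 27712 CPM in vehicle, higher in 4 of 4 animals. Lymphocyte markers had 10 of 14 above 0 and a median of 0.19, and classical and patrolling monocyte genes 10 of 15 and 0.07. For erythroid and megakaryocyte markers these were 11 of 15 and 0.07, for stromal and endothelial markers 6 of 9 and 0.06. Dendritic cell markers had 8 of 15 and 0.02. In RNA from whole cultures, a larger share of cells of a type and more RNA per cell cannot be told apart, and the part of granulocytes in the results was not tested.

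**Figure D3:**
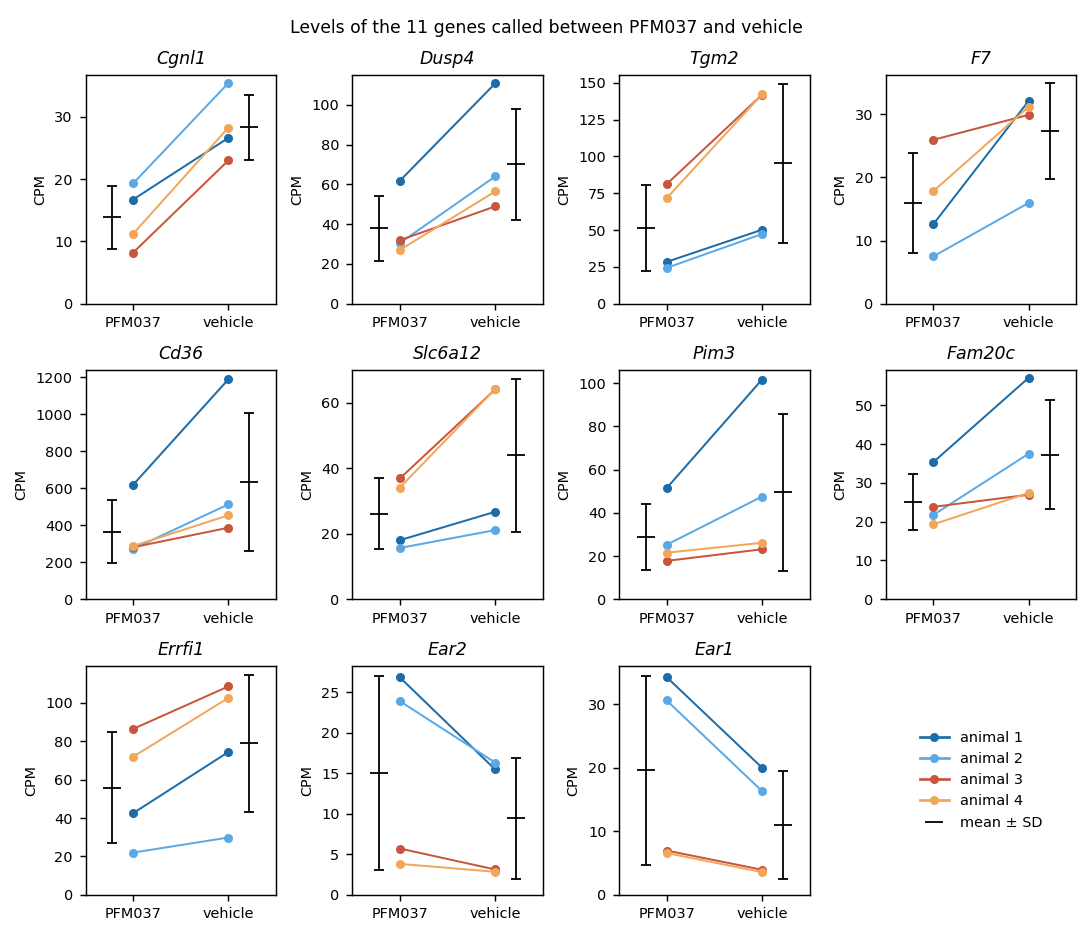
CPM of each of the 11 genes called between PFM037 (left) and vehicle (right), with a line per animal and the mean ± SD over 4 animals in black. The 9 genes that fell slope up towards vehicle in every animal, and Ear1 and Ear2 slope down, with animals 1 and 2 apart from animals 3 and 4 in many of the panels.

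Beyond the 11 calls, 290 genes with at least 5 CPM and an unadjusted p under 0.01 moved the same way in 4 of 4 animals without passing. The 8 lowest had log2 changes of -2.28 to -0.80. Arg1, which encodes arginase 1, was at 7.30, 0.772, 2.05 and 0.741 CPM in PFM037 and 72.5, 2.20, 3.07 and 1.45 CPM in vehicle. The vehicle level of animal 1 stood far above the other 7 libraries, and the log2 change of -2.28 had an SE of 0.56 and an adjusted p of 0.166 (edgeR). The mannose receptor gene Mrc1 was at 56.9, 11.2, 65.5 and 67.3 CPM in PFM037 and 194, 28.8, 72.8 and 90.7 CPM in vehicle (log2 -0.98, adjusted p = 0.155 by edgeR). For the growth factor gene Igf1, levels of 53.1, 20.2, 47.4 and 38.3 CPM in PFM037 stood against 151, 45.8, 54.7 and 59.7 CPM in vehicle (log2 -0.91, adjusted p = 0.0548 by edgeR). In Arg1, Mrc1 and Igf1 the difference was largest in animal 1.

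Fabp4, a carrier of fatty acids, was at 4.50, 2.15, 4.64 and 4.13 CPM in PFM037 and 7.59, 7.36, 6.60 and 6.62 CPM in vehicle, without overlap (log2 -0.94, adjusted p = 0.189 by edgeR). Mmp12, the macrophage elastase, was at 102, 36.0, 83.0 and 49.2 CPM in PFM037 and 179, 77.1, 114 and 98.9 CPM in vehicle. Its log2 change was -0.82 with an adjusted p of 0.136, and it was called lower in the 8-library fit (log2 -0.84, SE 0.08, adjusted p = 0.00123, edgeR). Thbs1, which encodes thrombospondin 1, a ligand of Cd36, was at 276, 300.2, 857 and 1158 CPM in PFM037 and 303, 536, 1851 and 2282 CPM in vehicle, with little difference in animal 1 (log2 -0.80, adjusted p = 0.0908 by edgeR). Dennd2a, a Rab exchange factor (-0.94), and the stress cytokine gene Gdf15 (-0.84) complete the 8, all of which were called lower in the 8-library fit.

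The 8 highest had smaller changes, of 0.51 to 0.62 on the log2 scale. Alox15, a lipoxygenase expressed by eosinophils among other cells, was at 63.2, 85.7, 13.6 and 14.7 CPM in PFM037 and 35.3, 54.0, 11.6 and 9.67 CPM in vehicle. It followed the same division of the animals as Ear1, and so did Prss34, Cd200r3 and Gm8113, the last of which lies in the Ear cluster. Nrg1, a ligand of ErbB receptors, was at 15.1, 13.4, 15.4 and 14.0 CPM in PFM037 and 7.78, 10.7, 11.4 and 11.1 CPM in vehicle. Its groups did not overlap, as for 0.52% of all genes on the higher side, and the adjusted p was 0.141 (log2 0.51, SE 0.12, edgeR). Prkdc, the catalytic subunit of DNA-dependent protein kinase (0.52), Arhgap33 (0.60) and Trip6 (0.57) were the others, and Alox15, Arhgap33, Prkdc, Prss34 and Nrg1 were called higher in the 8-library fit.

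The gene lists moved by small amounts. Over all genes 0.065% fell and 11.4% were lower in 4 of 4 animals, and the 8-library fit called 1.37% lower and 0.419% higher. In the list of 15 measured alternative activation genes, 1 fell (Tgm2), 7 were lower in 4 of 4 animals and the median log2 change was -0.45. The 8-library fit called 5 of them lower, namely Arg1, Mrc1, Tgm2, the lectin gene Clec10a (-0.64) and Il1rn (-0.61), which encodes the interleukin-1 receptor antagonist. The per-animal medians were -0.66, -0.19, -0.11 and -0.18. Of 22 PPAR, LXR and retinoid lipid genes, 2 fell (Cd36 and Tgm2), 15 were below 0 and the median was -0.15. The 8-library fit added Fabp4, Hilpda (-0.49) and the lipid droplet coat gene Plin2 (-0.37), and called none higher.

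Macrophage maturation genes leaned the same way. Of 25 measured, 22 were below 0, against 49.9% of all genes, and the median was -0.15. Among the 25, 9 were lower in 4 of 4 animals, against 11.4% of all genes. Cd36 was the only member that fell, and Mrc1 and Gpnmb (-0.51) were among those called lower in the 8-library fit. The summed level of the maturation list was 25679 to 38799 CPM in PFM037 and 29728 to 41423 CPM in vehicle, lower with PFM037 in each animal. Lyz2, which granulocytes also express, was its largest member, at 18958 to 26556 CPM in PFM037 and 21127 to 27944 CPM in vehicle. The sum therefore leans heavily on that gene. Lysosome and autophagy genes had 27 of 28 below 0 and 16 lower in 4 of 4 animals, with a median of -0.16. None of the 28 passed in the 16-library fit, and Gpnmb, Psap, Lipa and Ctsl were called lower in the smaller one. Psap, the precursor of the saposins that help to degrade sphingolipids, was at 4380, 3657, 6786 and 6511 CPM in PFM037 and 5951, 5256, 7798 and 8039 CPM in vehicle (8-library log2 -0.37, adjusted p = 0.0150, edgeR). The medians of both lists were further from 0 in animals 1 and 2 than in animals 3 and 4, at -0.34, -0.37, 0.00 and -0.08 for maturation and -0.29, -0.29, -0.01 and -0.10 for lysosomes.

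The inflammatory lists were lower as well, although no TNF had been added. Of 30 NF-kB and TNF response genes 26 were below 0, 14 in 4 of 4 animals, and the median was -0.18, further from 0 in animals 3 and 4 (-0.30 and -0.24) than in animals 1 and 2 (-0.05 and -0.13). Over all genes 11.4% were lower in 4 of 4 animals, and the smaller fit called 1.37% lower. None of the 30 passed in the larger fit and 9 were called lower in the smaller one, with none higher. Among these 9, Tnfrsf1b, which encodes TNF receptor 2, was at 248, 197, 600.1 and 646 CPM in PFM037 and 355, 276, 798 and 809 CPM in vehicle (log2 -0.44, SE 0.05, adjusted p = 0.00183, edgeR). Ninj1, a membrane protein of cell rupture, was at 176 to 188 CPM in PFM037 and 221 to 256 CPM in vehicle, without overlap (8-library log2 -0.37, adjusted p = 0.00845, edgeR). Il1b (-0.51), Traf1 (-0.55) and Ier3 (-0.55) had the larger changes of the 9. Tnf itself was at 41.2 to 61.5 CPM in PFM037 and 48.4 to 53.6 CPM in vehicle (log2 0.01, SE 0.16, turning to -0.05 and -0.06 without animal 1 or 2), and Nfkbia, which encodes the inhibitor of NF-kB, did not pass in either fit (log2 -0.19, SE 0.10). Of 15 measured chemokines 13 were below 0 with a median of -0.18, but only 2 were lower in 4 of 4 animals, a share near that of all genes. Ccl6 (-0.29) was the only call, in the smaller fit.

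Metabolic and stress lists differed from each other. For comparison, 11.4% of all genes were lower in 4 of 4 animals, and 1.37% were called lower in the 8-library fit. Of 28 NRF2 targets and heme genes 23 were below 0, 15 in 4 of 4 animals, with a median of -0.15, and the quinone reductase gene Nqo1 (-0.48), Srxn1 (-0.31), Fth1 (-0.30) and Gclm (-0.29) were called lower in the 8-library fit alone. Hmox1 did not pass in either (log2 -0.14, SE 0.12). Of 23 cholesterol synthesis genes 22 were below 0 and 9 were lower in 4 of 4 animals, with a median of -0.16 that was near 0 in animal 1 (0.01) and lowest in animals 3 and 4 (-0.23 and -0.22). Insig1, which retains the sterol sensor in the endoplasmic reticulum, was the only call among them (8-library log2 -0.26, adjusted p = 0.0338, edgeR). Glycolysis and hypoxia genes (median -0.07) and genes of the unfolded protein and integrated stress response (-0.03, or 0.01 scaled by library size alone) had 0 calls in either fit. Interferon-stimulated genes had 13 of 30 above 0 and 0 calls, with medians of -0.46, -0.13, 0.13 and 0.10 in animals 1 to 4.

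Cell cycle genes leaned upwards. Of 33 measured, 32 were above 0 and 24 were higher in 4 of 4 animals, against 50.1% and 10.5% of all genes. The median was 0.18, with 0.23, 0.11, 0.12 and 0.20 in animals 1 to 4. None passed in the 16-library fit, and Mki67, Top2a, Cenpe, Bub1, Kif11 and Mcm2 were called higher in the 8-library fit, with log2 changes of 0.22 to 0.35. That fit called 0.419% of all genes higher. Top2a, the topoisomerase of dividing cells, was at 397, 416, 321 and 341 CPM in PFM037 and 293, 325, 268 and 278 CPM in vehicle, lower in vehicle in each animal (log2 0.33, adjusted p = 0.00882, edgeR). The M-CSF receptor gene Csf1r passed in neither fit (log2 -0.14, SE 0.07), nor did Csf1, which encodes M-CSF (log2 0.35, SE 0.12, adjusted p = 0.373, edgeR).

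**Figure D4:**
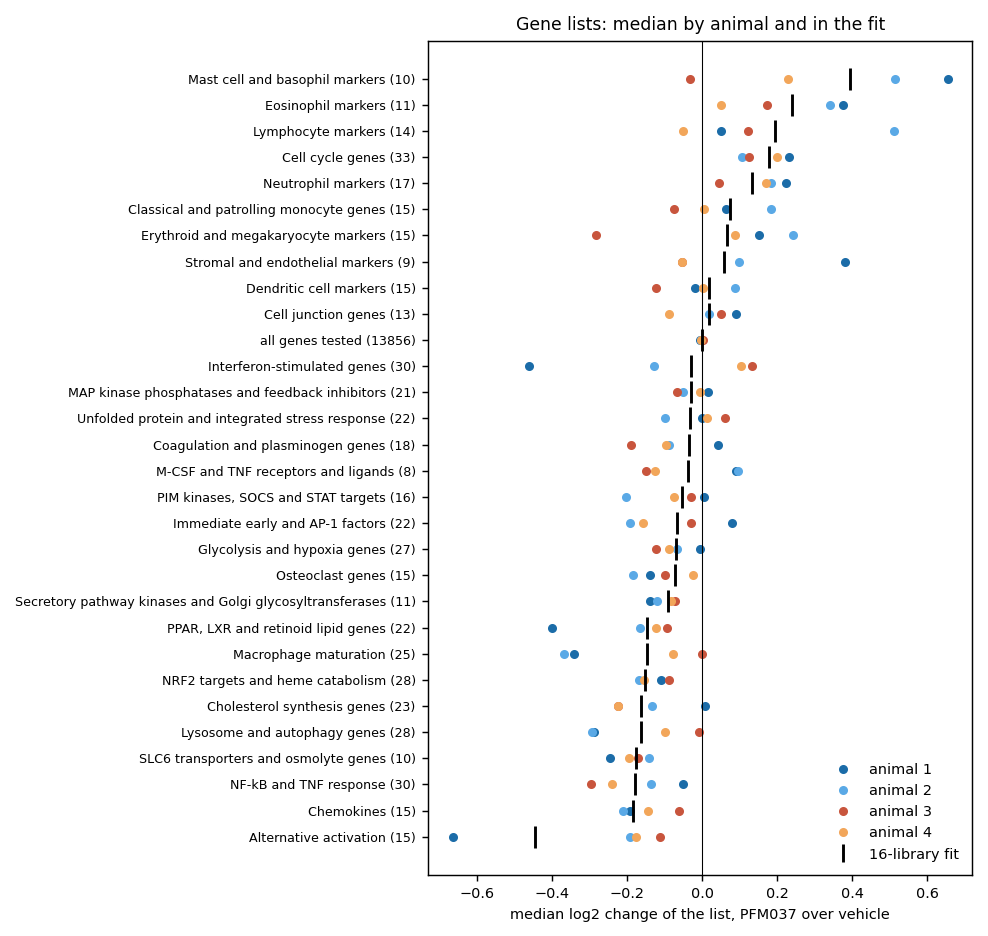
Median log2 change, PFM037 over vehicle, of 29 gene lists and of all genes, in the 16-library fit (black bar) and within each animal (points), with the number of genes measured in brackets. Cell cycle genes lie above 0 in every animal, NF-kB and TNF response genes lie below 0 in every animal, and interferon-stimulated genes lie below 0 in animals 1 and 2 and above 0 in animals 3 and 4.

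The same compound was compared with its own control in cells given TNF, in 8 other libraries from the same animals. In the 16-library fit both comparisons share the estimate of the spread and the animal block, so the comparisons are not independent there. All 11 genes moved in the same direction there, in 4 of 4 animals, as 12.2% of all genes did upwards and 10.7% downwards. Of the 11, 7 also passed in that comparison, where 1.36% of all genes were called (0.823%, or 114 genes, lower and 0.534%, or 74 genes, higher). Scaled by library size alone that split became 87 lower and 117 higher. Cgnl1 (-0.94), F7 (-0.82), Slc6a12 (-0.84), Cd36 (-0.60), Dusp4 (-0.45), Ear1 (0.73) and Ear2 (0.57) passed, and Tgm2 (-0.51, adjusted p = 0.116), Fam20c (-0.31, adjusted p = 0.120), Pim3 (-0.41, adjusted p = 0.0826) and Errfi1 (-0.34, adjusted p = 0.0701) did not (edgeR). Cgnl1 was at 14.0, 27.6, 11.9 and 18.6 CPM in PFM037+TNF and 32.1, 55.9, 26.3 and 24.3 CPM in TNF. All 16 genes named after the 11 also kept the direction of their fitted change with TNF. In the 8-library fits 68.5% of all genes did so. Arg1, Prkdc, Gm8113, Trip6 and Arhgap33 did not keep it in every animal with TNF. Of the 16, 3 passed there, Mmp12, Thbs1 and Alox15.

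In 8-library fits of both comparisons, 235 of the 239 genes called without TNF had the same sign with TNF, against 68.5% of the 12905 genes tested in both. Of the 239, 123 were also called with TNF, which is 51.5% of the calls without TNF and 30.1% of the 408 with it (2.12% of the genes tested there were called lower and 1.0% higher), and all 123 had the same sign in both. In the 16-library fit some list medians differed with TNF. Interferon-stimulated genes had -0.03 without TNF and 0.41 with it, where 29 of 30 were above 0. Macrophage maturation genes had -0.15 and -0.0042, with 12 above 0 and 13 below with TNF. Cholesterol synthesis genes had -0.16 and -0.0045. Cell cycle genes (0.18 and 0.265), lysosome genes (-0.16 and -0.15) and NRF2 targets (-0.15 and -0.31) kept their direction. Lists were not tested.

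Whether TNF altered the effect of PFM037 was tested gene by gene as the difference between the effects. No gene passed by edgeR, where 383 genes, or 2.76%, had an unadjusted p under 0.05, and DESeq2 and limma-voom also called 0. Of the 27 genes named here Dusp4 was the only 1 with an unadjusted p under 0.05. It was at 86.4, 62.5, 61.3 and 52.5 CPM in PFM037+TNF and 148, 88.4, 70.1 and 65.4 CPM in TNF, a decrease that was smaller by 0.45 on the log2 scale than without TNF (SE 0.14, unadjusted p = 0.00454, adjusted p = 0.99988, edgeR). Slc6a13, the neighbour of Slc6a12, was lower with PFM037 in TNF-treated cells (log2 -0.94, adjusted p = 0.0181 by edgeR) and did not pass without TNF, with a difference between the effects of -0.61 (unadjusted p = 0.0115, adjusted p = 0.99988, edgeR).

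**Figure D5:**
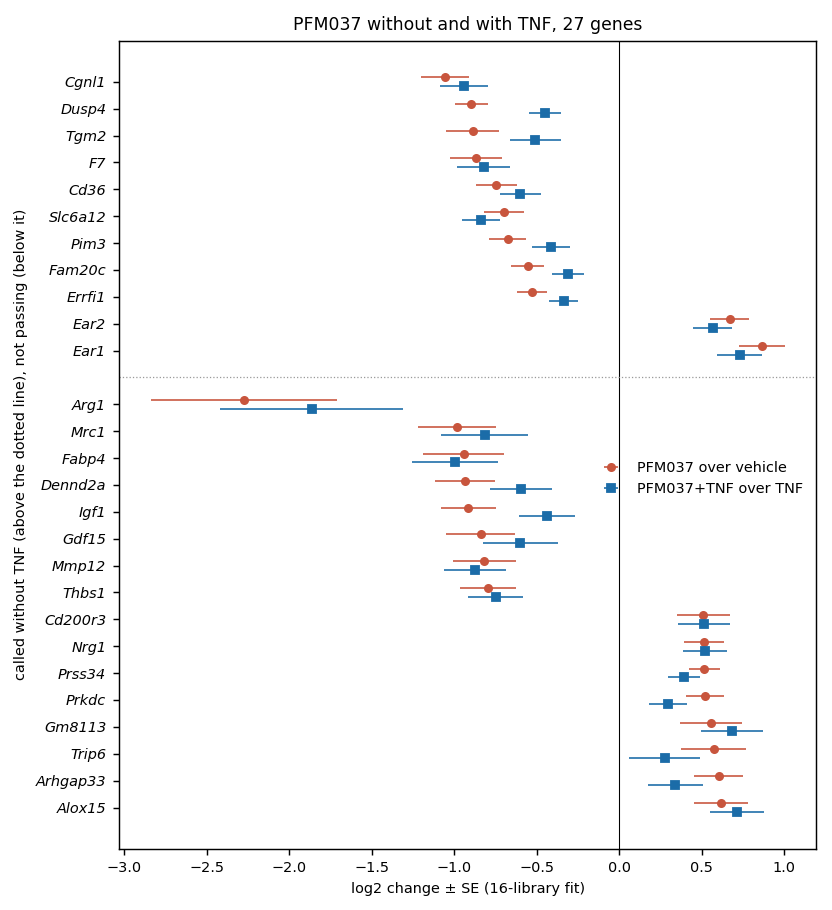
Log2 change ± SE of the 11 called genes (above the dotted line) and the 16 genes named next (below it), for PFM037 over vehicle (red circles) and PFM037+TNF over TNF (blue squares). All 27 genes lie on the same side of 0 in both comparisons, and Dusp4 shows the widest gap relative to its errors.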

How the data were processed

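RNA of bone marrow-derived monocytes was measured in 16 libraries, 4 animals in each of 4 groups. Per the labels' protocols, 500 ng of total RNA went into a stranded mRNA kit and were read as 75-base single reads. The submitters' processing notes name STAR 2.5.3a, featureCounts, limma and mm10 (GRCm38). The deposited table holds the authors' raw counts per gene, its annotation release and strand setting are not given in the sources here, so reads of overlapping genes are uncertain. It lists 50508 genes, 30556 with a count. Dates replace the symbols of 26.

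The counts went into edgeR 4.0.16 under R 4.3.3 (quasi-likelihood F-test, TMM, filterByExpr with a minimum count of 10 and a minimum total of 15) in a model of group and animal over all 16 libraries. Two-sided p-values were Benjamini-Hochberg adjusted over 13856 genes. The animal is a block because by the labels each animal gave a library to every group, and the PFM037 and vehicle libraries of an animal correlated at 0.655 to 0.777 in their deviation from the group mean. Libraries of different animals correlated at up to 0.609 (animals 3 and 4) and 0.440 (animals 1 and 2). Replicates are animals. CPM values are counts scaled by the TMM-adjusted library total.

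The comparison, the 29 textbook gene lists and the tests were chosen with earlier results of these data known, and lists are described by counts and medians without a test. Named genes are all calls. Then, among genes that did not pass, with a mean of at least 5 CPM, an unadjusted p under 0.01 and the same sign in 4 of 4 animals, the 8 highest and 8 lowest were taken. Up to 3 members with the smallest p of each list and 7 fixed genes (Tnf, Tnfrsf1a, Tnfrsf1b, Csf1, Csf1r, Nfkbia, Hmox1) were added. Other list members are named where the 8-library fit called them, and the value of Slc6a13 with TNF was picked after it was seen.

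Alternatives were size factors of DESeq2 1.42.0, unadjusted library size, dropping the filter except for genes without a count, a stricter filter (5 CPM in 4 or more libraries), DESeq2, limma-voom (limma 3.58.1), only the 8 libraries compared, no block, and each animal left out. The 8-library fit without each animal was added after seeing the data. Scripts were tested on a single set of simulated counts drawn from the 16-library model. There 15 of 204 calls were false in the 16-library fit and 27 of 219 in the 8-library fit. Because the simulation follows the larger fit, it cannot tell which fit suits the real data better.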

Additional observations from a re-analysis of the deposited data

Results flagged for a closer look

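In 105 sets of 4 values examined (levels in both groups and log2 changes by animal, for the 27 named genes and 8 others whose levels are given), 6 had a library far from the other 3 of its group, by a gap that was large against the range of the 4. Chance does so in about 1 in 20. Animal 1 stood high in 5 of the 6. Cd36 was at 619 CPM in PFM037 animal 1 and at 1189.6 CPM in vehicle animal 1. Dusp4 was at 61.8 CPM in PFM037 animal 1, Arg1 at 72.5 CPM in vehicle animal 1 and Igf1 at 151 CPM in vehicle animal 1. F7 was low, at 16.0 CPM, in vehicle animal 2. These values describe the spread between animals, which the block takes up when an animal is high in both groups, as for Cd36.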

How the results depend on the processing

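For PFM037 against vehicle the 11 calls became 4 with library size alone, 236 without a filter, 74 with DESeq2 and 239 in the 8-library fit, and 0 to 6 with an animal left out. Size factors of DESeq2 and limma-voom gave 11 and the stricter filter 10. Without the replicate block the pairing by animal was lost and edgeR called 0 genes in this comparison (223 at an unadjusted p under 0.05) and 0 in PFM037+TNF against TNF (515), while the coefficient of variation was 25.19%, against 9.73% with it. All 11 calls were kept with DESeq2, with its size factors, without a filter and in the 8-library fit. The stricter filter kept 10, limma-voom 8, library size alone 4, and leaving out animals 1, 2, 3 and 4 kept 3, 1, 3 and 0. The 239 calls of the 8-library fit became 43 to 385 with an animal left out. For PFM037+TNF against TNF 188 calls became 653 without a filter, 409 with DESeq2, 408 in the fit to the 8 libraries compared, and 1 to 60 with an animal left out. The test of the difference between the effects called 0 genes, or 34 without a filter. The log2 change turned round in Hbb-bs without animal 2 (-0.00169) and in Tnf without animal 1 (-0.0536) and animal 2 (-0.0566), none of them a call. With each animal left out, Hbb-bs ran from -0.00169 to 0.294 and Tnf from -0.0566 to 0.109. The cause of these shifts was not tested. Depth limits genes such as Arg1 and Ear2, which lay near 1 to 4 CPM in some libraries.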

Other observations

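Genes outside the lists that the 8-library fit called, named here after their values were seen, included several secreted or surface proteins that were lower with PFM037 both without and with TNF. Ednrb, the endothelin B receptor gene, had log2 changes of -0.86 without TNF and -1.06 with it, and the aminopeptidase gene Anpep -0.78 and -0.68. The protease inhibitor gene Slpi had -0.57 and -0.66, and the acute-phase gene Saa3 -0.56 and -0.76. Each passed at an adjusted p of 0.0344 or less in the fit to the 8 libraries of either comparison (edgeR). Il10, which encodes an anti-inflammatory cytokine, was called lower without TNF (-0.70, adjusted p = 0.0347) and did not pass with it (-0.52, adjusted p = 0.325, edgeR), a difference that was not tested. Among higher genes, Cd34, a marker of blood progenitors, had 0.32 and 0.30, and Spint1, an inhibitor of serine proteases, 0.38 and 0.56.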
